A study of Mus musculus with 6 samples.

Results

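The receptor gene Ackr3, its chemokine ligand Cxcl12 and the partner receptor Cxcr4 were examined in mouse embryonic stem (ES) cells, undifferentiated cells of the early embryo kept in culture. All probe sets whose only gene symbol is Ackr3, Cxcl12 or Cxcr4 were taken, which gave 5 of the 45037 probe sets tested and 3 of 18193 genes. Ackr3 is read by 1 probe set, Cxcl12 by 3 and Cxcr4 by 1. Ackr3 was chosen by its higher values in all 3 induced cultures, so its induction values, and those of the other members in the same contrast, are given as a description without a test.

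The induced group comprised 3 cultures, 1 each of clones A3, A4 and A5, sampled 24 hours after tetracycline was removed from the medium. The uninduced group comprised 1 culture of each clone kept in tetracycline (0 hours without it). Both groups carry the human GTF2IRD2 coding sequence, tagged with a 3xFLAG epitope, at the ROSA26 locus of the EB3 line, behind a promoter that tetracycline represses, and the study's ES medium contained leukemia inhibitory factor. Each clone is a single recombinant line, and 0 arrays come from cells without the transgene, so the transgene and the removal of tetracycline cannot be told apart. The methods name the longest annotated coding sequence of GTF2IRD2 as the one cloned, while the insert printed with the study is short for a factor of this family, so whether the clones make the full-length protein is not known here. Total RNA was hybridized to Affymetrix arrays that cover the mouse genome, and values are log2 RMA summaries, on which a difference of 1 is 2-fold. The labels call the cultures biological replicates, and the p-values reflect no more than how these cultures and clones vary.

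Cxcl12 is a secreted chemokine that guides migrating cells, among them blood stem cells, primordial germ cells and neurons, and it is made in many stromal tissues. Cxcr4 is its G protein-coupled receptor, which turns binding of Cxcl12 into movement and growth signals. Ackr3 is an atypical chemokine receptor: it binds Cxcl12, recruits beta-arrestins with little or no G protein signalling and takes the ligand into the cell, which lowers the amount outside. It also binds Cxcl11 and can take up the peptide adrenomedullin.

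The sequence just upstream of each gene's annotated start is shown because the induced protein belongs to a family of DNA-binding transcription factors. Sequences are from RefSeq (GRCm38.p6), 100 bases each, written 5′ to 3′ on the gene's own strand and ending at the base before the start, with capitals marking TATAAA or GGGCGG on either strand. Ackr3 lies on the forward strand of chromosome 1 (chr1:90203880-90203979), Cxcl12 on the forward strand of chromosome 6 (chr6:117168435-117168534) and Cxcr4 on the reverse strand of chromosome 1 (chr1:128592300-128592399).
Ackr3: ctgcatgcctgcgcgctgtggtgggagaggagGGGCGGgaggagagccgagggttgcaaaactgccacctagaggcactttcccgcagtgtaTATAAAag
Cxcl12: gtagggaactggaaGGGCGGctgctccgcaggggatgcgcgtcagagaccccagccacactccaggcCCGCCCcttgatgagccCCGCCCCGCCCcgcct
Cxcr4: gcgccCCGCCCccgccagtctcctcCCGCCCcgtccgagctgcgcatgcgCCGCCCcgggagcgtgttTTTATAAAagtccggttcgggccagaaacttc

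In the 250 bases before the start, TATAAA, the core of the TATA box, was found in Ackr3 and Cxcr4 and in 12.4% of 32851 promoters of the same length. Its first base lay at -8 in Ackr3 and at -30 in Cxcr4 on the gene's strand, counted back from the start, and in Cxcr4 it overlaps a match on the other strand. GGGCGG, the GC box, was found in all 3 genes and in 32.7% of promoters, with 1 match in Ackr3, 5 in Cxcl12 and 3 in Cxcr4. GGATTA, a core that GTF2IRD1 of this family is known to bind, had 0 matches in the 3 genes and was in 6.25% of promoters. ACGTG, a core of hypoxia response elements, also had 0 matches and was in 16.6%. Matches were sought on both strands. GC content was 54.0% for Ackr3, 64.4% for Cxcl12 and 61.2% for Cxcr4, against a median of 52.4% over all promoters.

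Ackr3 had higher values after induction in each clone. Its probe set, 1417625_s_at, read 7.15 for A3, 7.18 for A4 and 6.75 for A5 across the induced cultures, against 6.46 for A3, 6.77 for A4 and 6.41 for A5 in the uninduced ones (log2). The induced A5 culture, at 6.75, lay just below the uninduced A4 culture, at 6.77, so the groups overlapped at that 1 point. Means were 7.03 ± 0.24 in induced and 6.55 ± 0.19 in uninduced cultures (SD, n = 3 each), a difference of 0.48 ± 0.14 (SE) or 1.39-fold. With the clone as a block the SE was 0.09. Since these are bulk cultures, more cells with Ackr3 RNA and more of it per cell cannot be told apart.

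The size of the Ackr3 difference varied among the clones, which was not tested. Within A3 the difference was 0.69 (1.61-fold), within A4 0.41 (1.33-fold) and within A5 0.34 (1.27-fold). The smallest, that of A5, lies nearest to 0, the limit behind the choice of Ackr3. Of all 45037 probe sets, 9 had a difference at least as high as that of Ackr3, itself included. Leaving out 1 array gave 0.41 to 0.62, and leaving out both arrays of a clone gave 0.38 without A3, 0.52 without A4 and 0.55 without A5. Poly-A spikes, bacterial transcripts added to the RNA before labelling, were also higher in the induced array of each clone, by 0.33 for A3, 0.09 for A4 and 0.50 for A5. The spikes differed most in A5, where Ackr3 differed least, while both differed more in A3 than in A4. Control spikes for the hybridization were also higher when induced, by 0.04 for A3, 0.01 for A4 and 0.19 for A5. The part of either kind of spike in the result was not tested.

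**Figure D1:**
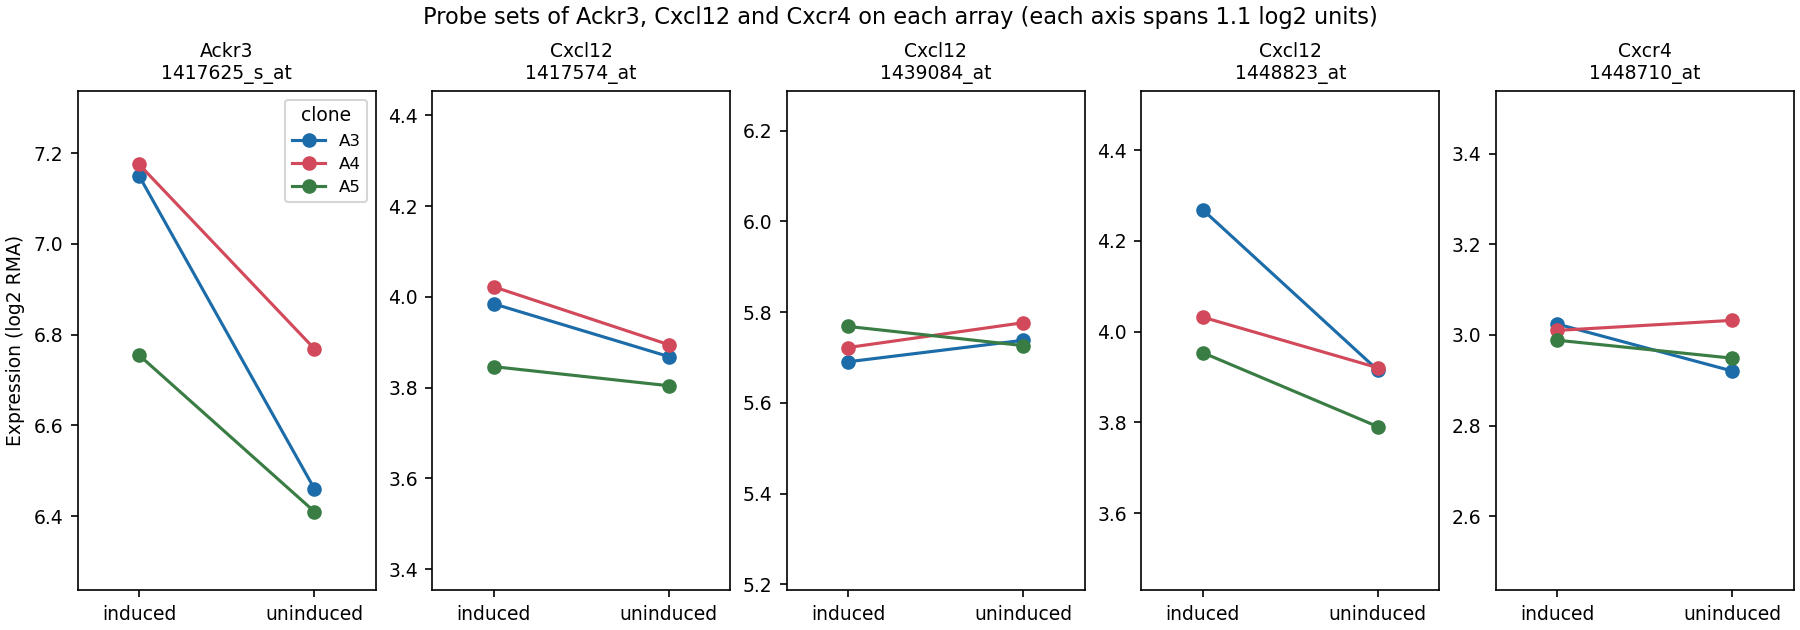
Expression (log2 RMA, y axis) of the 5 probe sets on each array, with induced cultures left and uninduced ones right (x axis) and a line joining the 2 cultures of a clone. Each axis spans 1.1 log2 units. Ackr3 sits at 6.75 to 7.18 in induced and 6.41 to 6.77 in uninduced cultures.

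The 3 probe sets of Cxcl12 did not move alike. At 1448823_at the induced cultures read 4.27 for A3, 4.03 for A4 and 3.95 for A5, and the uninduced ones 3.91 for A3, 3.92 for A4 and 3.79 for A5. All induced arrays here lay above all uninduced ones, and the nearest were the induced A5 and the uninduced A4 culture. These values lie below the array medians of 5.03 to 5.06, and whether they stand above background is not known here. The difference was 0.21 ± 0.10 (SE, n = 3 each), with 0.35 for A3, 0.11 for A4 and 0.16 for A5.

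At 1417574_at the induced cultures read 3.98 for A3, 4.02 for A4 and 3.85 for A5, and the uninduced ones 3.87 for A3, 3.89 for A4 and 3.80 for A5. The groups overlapped, although each clone was higher when induced. All 6 values lie below the array medians, with the same limit on background. The difference was 0.10 ± 0.08 (SE), within 0.04 to 0.13 over the clones.

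The third probe set of Cxcl12, 1439084_at, had no common direction in the clones. Its values were 5.69 for A3, 5.72 for A4 and 5.77 for A5 when induced, and 5.74 for A3, 5.78 for A4 and 5.73 for A5 when uninduced. The groups overlapped, and the clones gave -0.05 for A3, -0.05 for A4 and 0.04 for A5, with a mean of -0.02 ± 0.07 (SE). Probe sets of 1 gene can read different transcript ends, and which Cxcl12 transcripts each one reads is not known here.

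Cxcr4 showed little difference between the groups. Its probe set, 1448710_at, read 3.02 for A3, 3.01 for A4 and 2.99 for A5 in induced cultures, against 2.92 for A3, 3.03 for A4 and 2.95 for A5 in uninduced ones. The groups overlapped, and the uninduced A4 culture was the highest of the 6. The difference was 0.04 ± 0.07 (SE, n = 3 each), with 0.10 for A3, -0.02 for A4 and 0.04 for A5. These values lie near the low end of the arrays, whose 5th percentiles were 2.51 to 2.55 and medians 5.03 to 5.06. RMA values carry no detection call, so whether the Cxcr4 signal stands above background is not known here.

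**Figure D2:**
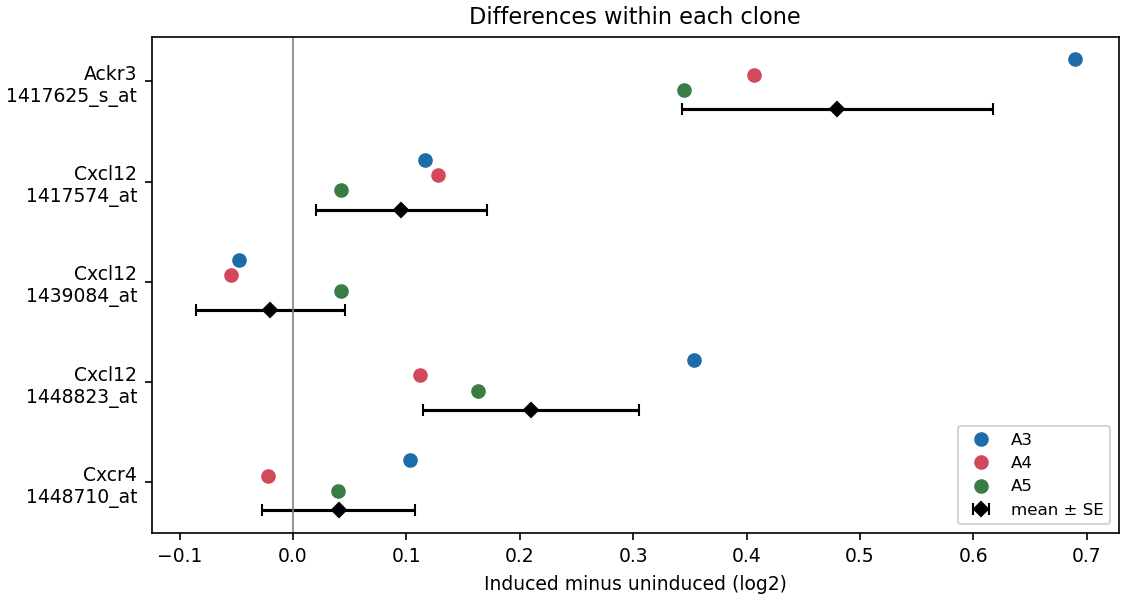
Difference between induced and uninduced cultures (log2, x axis) for each of the 5 probe sets (y axis). Circles give single clones and diamonds the mean with its SE from limma without a block. Ackr3 had 0.69, 0.41 and 0.34 in A3, A4 and A5, while the mean of Cxcr4 was 0.04.

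Across the array, limma called 0 of 45037 probe sets between induced and uninduced cultures at an adjusted p under 0.05, or 0%, with or without the clone as a block, and so 0 of the 5 members. At an unadjusted p under 0.05 limma had 1404 probe sets without the block, 536 higher and 868 lower, and 2597 with it, 1170 higher and 1427 lower. The methods' t-test had 1681, 685 higher and 996 lower. Values were higher in all 3 clones for 3 of the 5 members, where 12.2% of all probe sets were, and lower in all 3 clones for 0 of 5, where 13.7% of all were. All induced arrays lay above all uninduced ones for 1 of the 5, the Cxcl12 probe set 1448823_at, against 3.35% of all. Since Ackr3 was picked for this pattern, these counts are not evidence about the members. The median difference over all probe sets was -0.00373 and the highest 0.94.

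**Figure D3:**
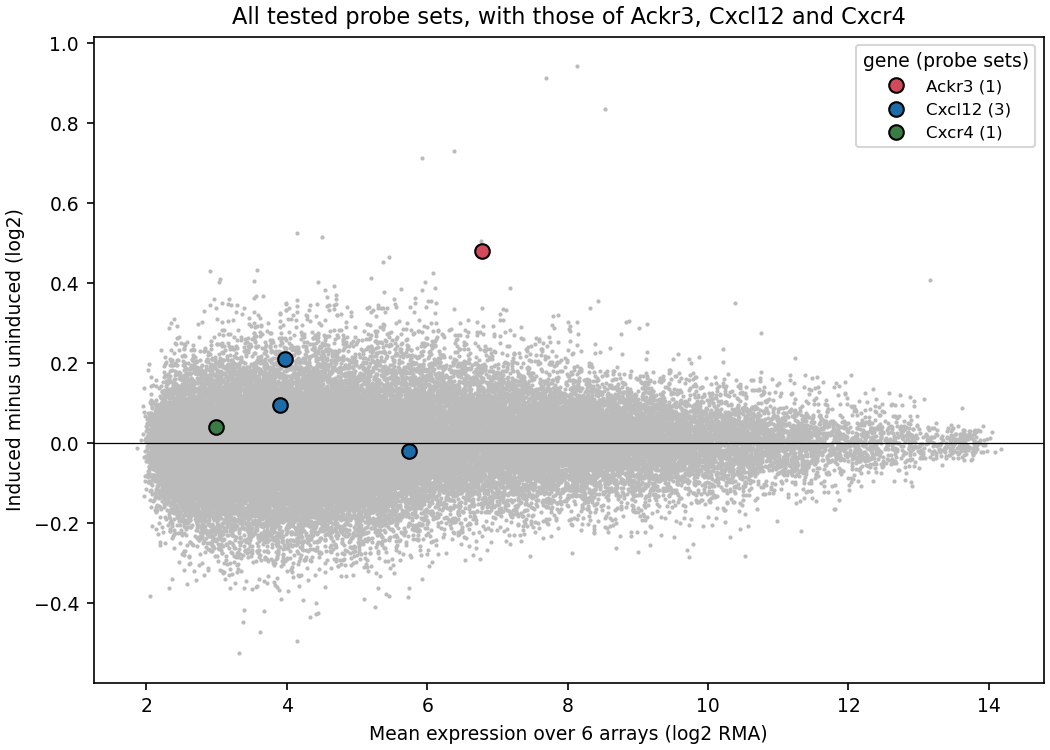
Difference on induction (log2, y axis) plotted over mean level on the 6 arrays (x axis, log2 RMA), with 45037 probe sets in grey and the members in colour. Ackr3, at 0.48, stands near the upper edge, and the Cxcl12 and Cxcr4 probe sets, at -0.02 to 0.21, lie within the grey cloud.

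The level of Ackr3 also varied from clone to clone, a comparison that played no part in its choice. Its means over both cultures were 6.81 for A3, 6.97 for A4 and 6.58 for A5 (n = 2 arrays each). The order A4, A3, A5 held in both groups. A3 minus A4 was -0.17 (95% interval -0.41 to 0.07), A3 minus A5 0.22 (-0.02 to 0.46) and A4 minus A5 0.39 (0.15 to 0.63) in limma with induction as covariate. Neither A3 and A4 nor A3 and A5, the neighbours in this order, differed beyond their spread. The contrast of A4 and A5 was not called once adjusted over all probe sets (adjusted p = 0.568 in limma). The clone term had an unadjusted p of 0.0169 and an adjusted p of 0.208 in the F-test of limma, so Ackr3 was not called, whereas 2.18% of all probe sets were.

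Cxcl12 and Cxcr4 differed less between clones. Clone means of Cxcl12 at 1448823_at were 4.09 for A3, 3.98 for A4 and 3.87 for A5, a range of 0.22 (limma F-test, adjusted p = 0.468). The other Cxcl12 probe sets ranged over 0.13 and 0.04 (adjusted p = 0.654 and 0.965 in limma). Cxcr4 had 2.97 for A3, 3.02 for A4 and 2.97 for A5, a range of 0.05 (adjusted p = 0.924 in limma). By pairs of clones, limma called 2.94% of all probe sets for A3 against A4, 1.68% for A3 against A5 and 0.0511% for A4 against A5, and 0 of the 5 members in each. The 95% intervals of the 3 clone contrasts of Cxcr4 ran from -0.24 at the lowest to 0.25 at the highest.

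Genes with a pattern like that of a member were sought by Pearson's r over the 6 arrays, as a description, since the arrays share 3 clones and few points give high r by chance. Candidates were the 1329 other genes with a mean of at least 5 and a range of at least 0.5 at their highest-mean probe set, and 3 of them had r above 0.9 with Ackr3. These were B3galt5, a galactosyltransferase of glycolipid and glycoprotein chains (r = 0.93), the RNA-binding protein gene Hnrnpab (0.90) and Pls3, which encodes the actin-bundling protein plastin (0.90). Prcc and the zinc finger gene Zfp60 followed at 0.88 each.

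B3galt5 read 6.48 for A3, 6.42 for A4 and 6.18 for A5 when induced, and 5.97 for A3, 6.26 for A4 and 6.14 for A5 when uninduced. Pls3 read 8.09 for A3, 8.08 for A4 and 7.69 for A5 when induced, and 7.77 for A3, 7.91 for A4 and 7.58 for A5 when uninduced. Like Ackr3, both were highest in the induced A3 and A4 cultures. Pls3 was lowest, as Ackr3 was, in the uninduced A5 culture and B3galt5 in the uninduced A3 culture. Their differences were 0.24 for B3galt5 and 0.20 for Pls3. Hnrnpab read 13.49 for A3, 13.33 for A4 and 13.28 for A5 when induced, and 12.97 for A3, 13.18 for A4 and 12.73 for A5 when uninduced. Its groups did not overlap, where 3.35% of all probe sets had all induced arrays above all uninduced ones. Its difference of 0.41 ± 0.12 (SE) was the nearest of the 5 to that of Ackr3. These genes were picked for likeness to Ackr3, itself chosen for higher induced values, so their differences are not evidence of a response. The lowest r belonged to Eppk1, which encodes the cytolinker epiplakin (-0.94), Aldh1l2, which encodes a folate enzyme of mitochondria (-0.91), and Syde1 (-0.89).

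Cxcl12 and Cxcr4 had their own sets. Nearest to Cxcl12 at 1439084_at were Chrnb1, an acetylcholine receptor subunit (r = 0.90), Dnaaf4 (0.90), Zfp386 (0.89), Ptges, a prostaglandin E synthase (0.89), and Pacsin1 (0.89). Nearest to Cxcr4 were Tm7sf2, a sterol reductase (0.94), Prkar2b, a regulatory subunit of protein kinase A (0.93), the metallothionein gene Mt4 (0.92), Slx1b (0.90) and Dram2 (0.89). As Cxcl12 and Cxcr4 ranged over only 0.09 and 0.11 on these probe sets, their r values rest on small differences between arrays.

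**Figure D4:**
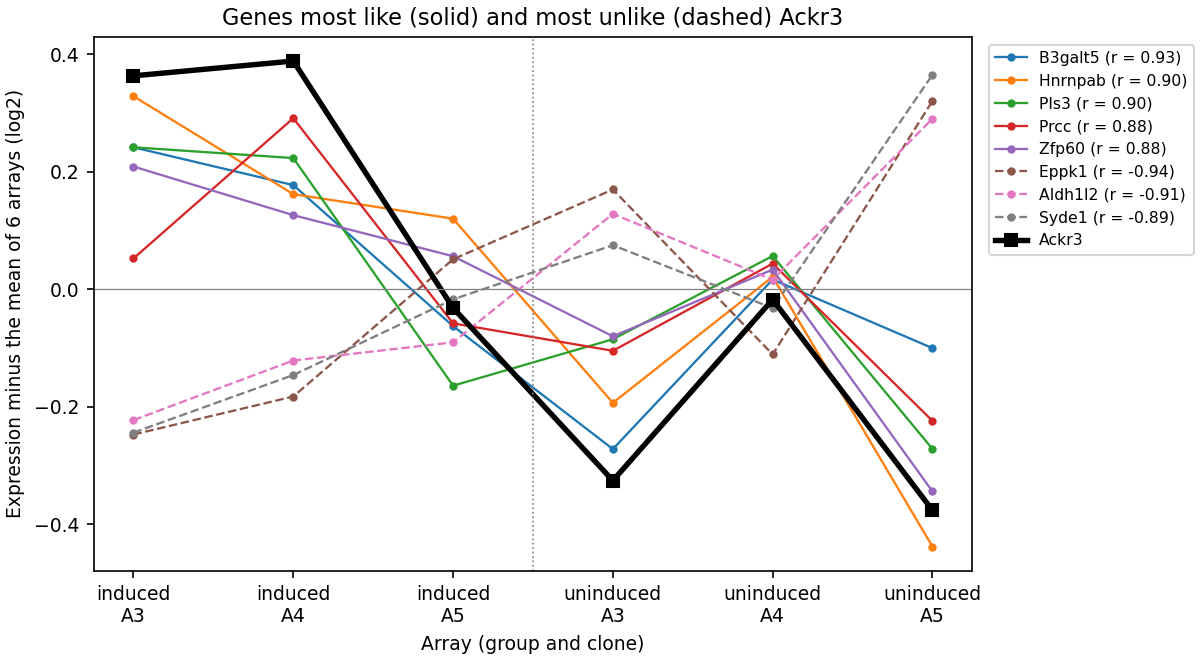
Expression minus the gene's mean over 6 arrays (log2, y axis) on each array (x axis, induced left), with lines joining the values of a gene. Ackr3 is in black, the 5 genes with the highest Pearson's r are solid and the 3 with the lowest are dashed. B3galt5 had r = 0.93 and Eppk1 r = -0.94.

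The rest of the pathway was described by 5 lists ordered by role, with the highest-mean probe set standing for a gene. Of 119 genes listed, 108 had a probe set with 1 symbol. Limma called 0 of 108 as higher and 0 as lower on induction. A difference above 0 was seen in 48 of 108, and in 8819 of all 18193 genes. The median was -0.01, where that of all probe sets was -0.00373. In the clone term 2 of 108 were called, or 1.85%, against 3.09% of all 18193 genes.

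Among ligands, the 14 other CXC chemokines had a median difference of -0.01, between -0.29 and 0.14. Cxcl11, the other chemokine that Ackr3 binds, read 3.84 for A3, 4.04 for A4 and 3.95 for A5 when induced. When uninduced it read 3.76 for A3, 3.97 for A4 and 4.00 for A5, a difference of 0.04 ± 0.09 (SE). At its other probe set the difference was 0.20 ± 0.09, with 0.18 for A3, 0.41 for A4 and -0.01 for A5. The values there, 2.21 to 2.62, lie near the 5th percentiles of the arrays. Cxcl14, which has been described to bind Cxcr4, read 3.85, 4.08 and 3.78 in induced A3, A4 and A5, and 4.07, 4.42 and 4.07 in uninduced A3, A4 and A5. It was lower by 0.22 to 0.34 within each clone, with a mean of -0.29. The SE was 0.12 without the block and 0.07 with it, and Cxcl14 was called in neither fit. Its other probe set gave -0.09 ± 0.10. All values of Cxcl11 and Cxcl14 lie below the array medians, and whether they stand above background is not known here.

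Other ligands of the receptors and their partners comprised 12 measured genes, with a median of 0.01. Adm, which encodes adrenomedullin, read 6.28 for A3, 6.33 for A4 and 6.27 for A5 when induced, and 5.89 for A3, 6.23 for A4 and 5.91 for A5 when uninduced. The difference was 0.28 ± 0.10 (SE) and the groups did not overlap, where 3.35% of all probe sets had all induced arrays above all uninduced ones. At its other probe set the difference was 0.35 ± 0.18. There the groups overlapped, as the uninduced A4 culture, at 5.82, lay above the induced A3 and A5 cultures, and A4 differed by 0.05. The adrenomedullin receptor genes differed less, with -0.09 ± 0.09 for Calcrl and 0.02 ± 0.13 for its accessory protein Ramp2. Other probe sets of Calcrl gave -0.02 ± 0.10 and 0.17 ± 0.09. The latter was higher in each clone, as 12.2% of all probe sets were. Calcrl values, at 2.19 to 3.24, lie below the array medians, and whether they stand above background is not known here. Mif, a cytokine that binds Cxcr4 and Ackr3, was at 13.27 to 13.29 in induced and 13.26 to 13.34 in uninduced cultures. Its receptor chain Cd74 differed by 0.01 ± 0.14.

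Receptors other than Cxcr4 and Ackr3 comprised 20 measured genes with a median of -0.00 and a span of -0.15 to 0.11. Of the atypical receptors, which clear chemokines as Ackr3 does, Ackr1 differed by -0.05 ± 0.08, Ackr2 by -0.07 ± 0.07 and Ackr4 by -0.03 ± 0.09 (SE), each smaller than its SE. Over the 3 probe sets of Ackr4 the differences ran from -0.03 to 0.15. Cxcr3, the signalling receptor of Cxcl11, differed by 0.11 ± 0.11.

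Of the signal transducers 37 were measured, with a median of -0.02 and values between -0.14 and 0.14. The beta-arrestin genes Arrb1 and Arrb2, whose products bind activated Ackr3 and Cxcr4, differed by 0.00289 ± 0.08 and -0.03 ± 0.10. Gnai2 and Gnai3, inhibitory G protein subunits through which Cxcr4 signals, differed by 0.02 ± 0.09 and -0.02 ± 0.07. Grk2, a kinase that phosphorylates the receptors, had no probe set with 1 symbol and was not analysed here.

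Jak3, a kinase of cytokine signalling, was the transducer called between clones (limma F-test, adjusted p = 0.0228). It was lower in A3, with clone means of 6.95 for A3, 7.54 for A4 and 7.44 for A5 (log2, n = 2 arrays each). The call was lost without the induced or the uninduced A3 culture, without both, and without the uninduced A4 culture.

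Genes of receptor turnover and ligand processing comprised 25, with a median of -0.01. Itch, the ubiquitin ligase that sends Cxcr4 to lysosomes, differed by 0.00517 ± 0.07 at its highest-mean probe set. Its other probe sets gave -0.04, -0.05 and -0.20 ± 0.09. The last was lower in each clone, as 13.7% of all probe sets were, at values of 3.45 to 3.89, below the array medians. Dpp4, the surface peptidase that cuts and inactivates Cxcl12, read 5.66 for A3, 6.14 for A4 and 6.24 for A5 when induced, and 5.39 for A3, 5.90 for A4 and 6.15 for A5 when uninduced. Each clone was higher when induced, by 0.27 for A3, 0.23 for A4 and 0.09 for A5, and the groups overlapped. The mean difference was 0.20, with an SE of 0.21 without the block and 0.07 with it, and limma called it in neither fit.

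Between clones Dpp4 was lower in A3, with means of 5.52 for A3, 6.02 for A4 and 6.19 for A5 (limma F-test, adjusted p = 0.0167). A3 minus A4 was -0.50 (adjusted p = 0.0256 in limma) and A3 minus A5 -0.67 (adjusted p = 0.0108 in limma). The other 3 probe sets of Dpp4 were not called, with ranges of 0.07 to 0.42. The call at this probe set was lost without either A3 culture (induced or uninduced) and without both. Cd74 was higher in A3 than in A4 by 0.41 (adjusted p = 0.0415 in limma), although its clone term was not called (adjusted p = 0.0719 in limma).

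**Figure D5:**
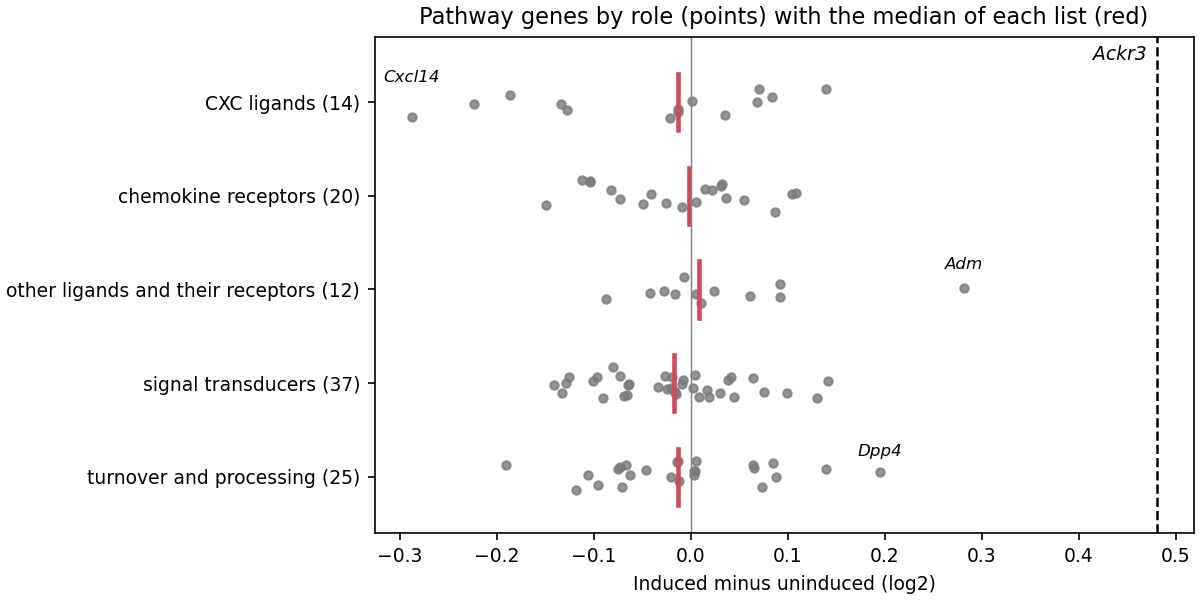
Difference on induction (log2, x axis) of the measured genes of 5 pathway lists (y axis, number of genes in parentheses), with a red bar at the median of each list and a dashed line at the 0.48 of Ackr3. Adm, at 0.28, and Cxcl14, at -0.29, are farthest from 0 among the listed genes.

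Genes beside the members on the chromosome had small differences, between -0.11 and 0.09. The nearest protein-coding genes around it are Asb18 and Iqca on 1 side and Cops8 and Col6a3 on the other, which differed by 0.09 ± 0.07, 0.08 ± 0.09, -0.04 ± 0.07 and -0.01 ± 0.08 (SE). Around Cxcl12 lie Depp1, Tmem72, Zfp637 and Zfp239, with -0.11 ± 0.08 to 0.03 ± 0.08. Around Cxcr4, Mcm6, Thsd7b and Cd55b differed by -0.06 to 0.05, and Dars had no probe set with 1 symbol.

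The cultures carried the markers of ES cells. The 8 ES genes averaged 11.56 to 11.58 over the induced and 11.54 to 11.55 over the uninduced arrays (log2). Pou5f1 stood at 12.64 ± 0.03 in induced and 12.51 ± 0.12 in uninduced cultures (SD, n = 3). Its difference of 0.12 was the highest of the 8, and that of Esrrb, at -0.17, the lowest. Of the 8 differences, 5 were above 0, and the median was 0.04. Lists for cells known to make or read Cxcl12 averaged 4.47 to 4.54 in induced and 4.51 to 4.55 in uninduced cultures for 8 fibroblast and stroma genes, 4.81 to 4.88 in induced and 4.77 to 4.85 in uninduced cultures for 6 endothelial genes, and 4.50 to 4.64 in induced and 4.53 to 4.65 in uninduced cultures for 7 blood genes. The 7 mesendoderm genes averaged 4.54 to 4.69 in induced and 4.60 to 4.71 in uninduced cultures. Averages were higher for the 7 germ cell genes, at 7.64 to 8.10 in induced and 7.65 to 8.08 in uninduced cultures. Which cells gave these values is not known from bulk cultures. The 6 neural genes averaged 5.86 to 5.96 in induced and 5.85 to 6.04 in uninduced cultures. Median differences were -0.04 for stroma, 0.03 for endothelium, 0.01 for blood, -0.01 for mesendoderm, 0.03 for germ cell and -0.05 for neural genes. Of all 7 marker lists limma called 0 members on induction. Values on these arrays do not reach 0, and the part of such cells in the values of Ackr3 was not tested. Between clones, the germ cell genes Dppa3, Tfap2c and Kit were called by limma (3 of 7), and so were Fgf4, Tek, Cd34 and Eomes, at adjusted p = 0.00202 to 0.0426 and in 5 to 12 of 13 alternatives each. Of all 18193 genes, 3.09% were called. The mouse counterpart of the transgene, Gtf2ird2, averaged 6.42 in induced and 6.25 in uninduced cultures. Within clones it differed by 0.05 for A3, 0.47 for A4 and 0.01 for A5. As the transgene is a human coding sequence, the Gtf2ird2 probe set need not detect the transgene.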

How the data were processed

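Biotin-labelled cRNA from 6 ES cell cultures had been hybridized to 1 array each. The authors made the deposited log2 values from the scans with RMA (affy package of Bioconductor, versions not given in the sources used here), which corrects background, equalizes the arrays by quantiles and summarizes probes. They were used as deposited, for 45037 probe sets without the 64 controls and without an intensity filter. Genes were named by the array's table (1 symbol for 34945 probe sets, several for 932, none for 9160).

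Groups and clones came from the sample labels. The groups were tested against each other in limma 3.58.1 in R 4.3.3 (lmFit, eBayes, two-sided) without a block, as the study's test was unpaired, and adjusted by Benjamini-Hochberg over all probe sets. The clone term was tested with induction as covariate. Cultures of 1 clone deviated together (r of 0.524, 0.376 and 0.210 across probe sets, against -0.407 to 0.0689 between clones), so the clone served as a block in an alternative. Further alternatives were an intensity trend, a mean of at least 5, median centring, repeated quantile normalization, the methods' t-test, other probe sets and arrays or clones left out. The pipeline was tested on simulated data.

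Members and lists were chosen with earlier results of these data known. Named genes were the members, the 5 genes most like each and the 3 least like Ackr3, pathway genes picked by role and every list gene called. Chromosome neighbours, Pou5f1, Esrrb and mouse Gtf2ird2 were added after values were seen. The number of arrays limits the precision.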

Additional observations from a re-analysis of the deposited data

Results flagged for a closer look

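For 2 member probe sets the difference between induced and uninduced cultures took opposite signs in different clones, with means of -0.02 ± 0.07 for Cxcl12 and 0.04 ± 0.07 for Cxcr4 (SE) and neither called. For Cxcl12 at 1439084_at the induced minus uninduced differences were -0.0474 for A3, -0.0548 for A4 and 0.0422 for A5. For Cxcr4 they were 0.104 for A3, -0.0222 for A4 and 0.0396 for A5. With 1 pair of cultures per clone the difference between clones was not tested.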

How the results depend on the processing

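On induction limma called 0 probe sets with the replicate block, as without it, and 0 under each other alternative run. The Ackr3 difference ran from 0.38 to 0.62 with other scalings and with arrays or clones left out. Its sign is no sign of stability, since Ackr3 was chosen for higher values in each clone. Under the same alternatives Cxcr4 gave 0.00872 to 0.07 and Cxcl12 0.06 to 0.15 at 1417574_at, 0.12 to 0.28 at 1448823_at and -0.05 to -0.00177 at 1439084_at. The block changed no call. For the clone term, 980 probe sets were called in all, 2641 when the fit used an intensity trend, 1885 among probe sets averaging 5 or more, 26 without both A3 arrays and 248 to 860 without 1 array (248 without the induced A3 culture, 413 without the uninduced A3 and 633 without the uninduced A4 culture). The cause was not tested. Ackr3 was not called between clones in any of 13 alternatives (adjusted p = 0.0856 to 0.483 in limma). The median of the CXC ligands was -0.01, and 0.03 with each gene's most variable probe set.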
